A study of Mus musculus with 5 samples.

Results

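The Igfbp3 Slc13a3 Wnt4 cells described here are 376 of 4678 cells from the spinal cords of Col1a1GFP mice. They were chosen by their unique molecular identifiers (UMIs, counts of distinct captured transcripts) for 4 genes: Igfbp3, Slc13a3, Wnt4 and Ranbp3l. A cell was chosen when it held at least 5 UMIs over those genes, from at least 2 of them. The sum also had to exceed the cell's sum over Inmt, Scgb1a1, Cldn1 and Aldh1a3 (the Inmt list) and its sum over Lcn2, Saa3, Cxcl5 and Draxin (the Lcn2 list). A kept cell had at least 200 detected genes and at most 10% mitochondrial UMIs.

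The study profiled single GFP-positive cells, sorted from dissociated spinal cord by fluorescence, from mice with experimental autoimmune encephalomyelitis (EAE, an immune-driven model of multiple sclerosis) and from healthy mice. All mice carried the Col1a1GFP reporter, in which regulatory sequence of a type I collagen gene drives green fluorescent protein, on a C57/BL6 background. There were 2 EAE libraries and 3 Healthy libraries. EAE 1, Healthy 1 and Healthy 2 form a first batch and EAE 2 and Healthy 3 a second one, whose labels carry a sequencing lane. No age or induction protocol for EAE was used here, and the labels do not tie libraries to animals. A p-value here therefore speaks of the spread among libraries, which may be technical.

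The arachnoid is the middle of the meninges, the sheets around the brain and cord. Its outer cells form a barrier with tight junctions and transporters, and fibroblasts line its inner face and the neighbouring pia and dura. Among the genes used for the choice, Igfbp3 encodes a secreted protein that binds insulin-like growth factors, Slc13a3 a sodium-coupled transporter of dicarboxylates, and Wnt4 a secreted Wnt ligand. Ranbp3l encodes a Ran-binding protein, and the further marker Ptgds encodes the synthase that makes prostaglandin D2 and is abundant in meningeal cells. On GRCm38 (mm10), with GENCODE gene spans, Igfbp3 lies on the minus strand of chr11:7206086-7213923, Slc13a3 on the minus strand of chr2:165405028-165473230 and Wnt4 on the plus strand of chr4:137277489-137299726. Ranbp3l lies on the plus strand of chr15:8967949-9067335 and Ptgds on the minus strand of chr2:25466709-25470046.

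The deposited tables held 10775024 and 7317084 UMIs in EAE 1 and EAE 2, and 1990869, 1949879 and 1588693 in Healthy 1 to 3. Files of the first batch shared barcodes: 1239 stood in both EAE 1 and Healthy 1, 683 in both EAE 1 and Healthy 2, and 996 in both Healthy 1 and Healthy 2. Each such barcode was counted once, in the file where it had most UMIs, which removed 2 barcodes from EAE 1, 1541 from Healthy 1 and 683 from Healthy 2. Of the 218 chosen cells of EAE 1, 173 had a barcode that also stood in the Healthy 1 file and 76 one that stood in the Healthy 2 file. Of the 16 chosen cells of Healthy 2, 14 had a barcode also in the Healthy 1 file. Doublets were not removed; 4, 1, 4, 1 and 4 chosen cells of EAE 1, EAE 2 and Healthy 1 to 3 lay above the 95th percentile of the UMIs of their library's other cells.

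The label of arachnoid cells was checked against 14 markers of arachnoid barrier cells. Slc47a1, Cdh1, Krt18, Krt8 and Tfap2b, 5 of the 14, had no UMI in the chosen cells of any library. Of the 6 markers with at least 20 CPM (UMIs summed over cells and scaled to a total of 1000000) on either side of the comparison in both EAE libraries, Crabp2 and Wnt6 were at least 2-fold higher in the chosen cells of both and none was 2-fold lower. Crabp2, a retinoic acid carrier, had 149 CPM in the chosen cells and 29.5 CPM in the other cells of EAE 1, and 95.9 CPM in the chosen and 29.6 CPM in the other cells of EAE 2. Cldn11, a tight junction protein, had 210 CPM in the chosen cells against 71.0 CPM in the other cells of EAE 1, and 125.7 against 98.8 CPM in EAE 2. The summed level of the 14 markers was higher in the chosen cells of every library. It was 717 and 506 CPM in EAE 1 and EAE 2, against 277 and 303 CPM in the other cells. In Healthy 1 to 3 it was 796, 496 and 625 CPM against 234, 228 and 184 CPM. The defining barrier markers that encode keratins and E-cadherin were nevertheless at 0. This goes against calling these cells arachnoid barrier cells, and they are called by their genes here. All 376 cells held at least 2 UMIs over the fibroblast genes Col1a1, Col1a2, Col3a1 and Dcn, and 3 cells held at least 10 UMIs from at least 3 myeloid or lymphocyte markers.

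The chosen cells made up 11.4% (218 of 1913) of EAE 1 and 8.80% (109 of 1238) of EAE 2, against 1.66% (12 of 724) of Healthy 1, 3.73% (16 of 429) of Healthy 2 and 5.61% (21 of 374) of Healthy 3. Exact Clopper-Pearson 95% intervals, which cover counting error only, were 10.0 to 12.9% and 7.29 to 10.5% in EAE, and 0.859 to 2.88%, 2.15 to 5.99% and 3.51 to 8.46% in Healthy. The groups did not overlap. The mean was 10.1% ± 1.83 in EAE (SD, n = 2) and 3.67% ± 1.98 in Healthy (SD, n = 3), a difference of 6.43 percentage points (exact permutation test over the 10 assignments of the libraries, two-sided p = 0.2, the smallest p this design allows). Within the first batch the difference was 8.70 points and within the second 3.19 points.

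**Figure D1:**
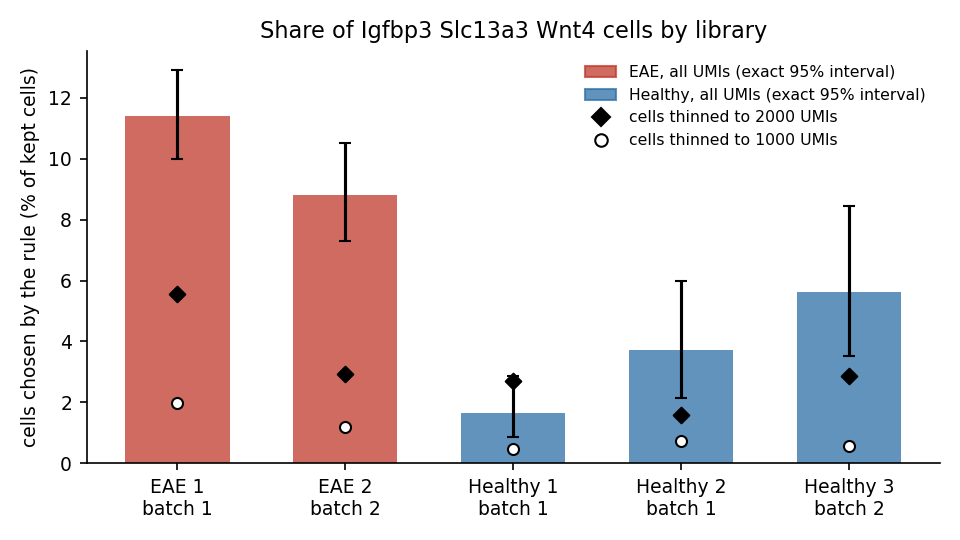
Share of kept cells chosen by the rule, in percent, for each library, with exact 95% intervals as bars; diamonds and open circles give the share after every cell was thinned to 2000 or 1000 UMIs. Both EAE libraries lie above the 3 Healthy ones with all UMIs, at 11.4 and 8.80% against 1.66, 3.73 and 5.61%, and EAE 2 lies close to Healthy 3 and Healthy 1 once cells are thinned to 2000 UMIs.

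Depth moved with this share, and the rule asks for a number of UMIs. The median UMIs of the other cells were 4532 and 4976 in EAE 1 and EAE 2, and 1198, 3173 and 4105 in Healthy 1 to 3. With each cell thinned to 2000 UMIs, and cells below that left out, the shares were 5.56% and 2.94% in EAE and 2.70%, 1.57% and 2.88% in Healthy, a difference of 1.87 points; the same cells unthinned differed by 5.20 points. At 1000 UMIs the shares were 1.99% and 1.18% in EAE and 0.464%, 0.741% and 0.551% in Healthy, a difference of 0.998 points, against 6.20 points unthinned. The groups did not overlap at either depth, and EAE 2 and Healthy 3 differed little at 2000 UMIs. The thinned shares rest on 102 and 32 chosen cells in EAE and on 5, 5 and 9 in Healthy at 2000 UMIs.

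The 4 genes contributed unequally to the choice, which is a description of the values that chose the cells. At least 1 UMI of Wnt4 was in 98.2% of the chosen cells of EAE 1 and 99.1% of those of EAE 2, and in all 12 of Healthy 1, all 16 of Healthy 2 and 95.2% of Healthy 3. Igfbp3 was in 69.7% and 67.0% of the EAE cells and in 33.3%, 62.5% and 71.4% of the Healthy cells. Slc13a3 was in 41.7% and 51.4% of the EAE cells and in 83.3%, 37.5% and 71.4% of the Healthy cells. Ranbp3l, at 37.6% and 35.8% in EAE and 8.33%, 18.8% and 28.6% in Healthy, was the least often seen of the 4 in every library. Most chosen cells (233) held 2 of the genes, 105 held 3 and 38 held all 4.

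Free RNA in droplets gives stray UMIs. Immune cells (at least 10 UMIs from at least 3 myeloid or lymphocyte markers) should lack the genes used for the choice. They serve as background for those genes only, and their shares for genes named later are given as values. Wnt4 was in 41.1% and 38.4% of the other cells of EAE 1 and EAE 2 and in 4.55% of 132 and 7.41% of 27 immune cells. Igfbp3 was in 15.3% and 10.6% of the other cells and in 2.27% and 0% of the immune cells, where 0 of 27 allows a share of up to 11.1%. Median depth was 3186.5 and 2519 UMIs in the immune cells, 4653 and 5451 in the chosen cells and 4532 and 4976 in the other cells.

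**Figure D2:**
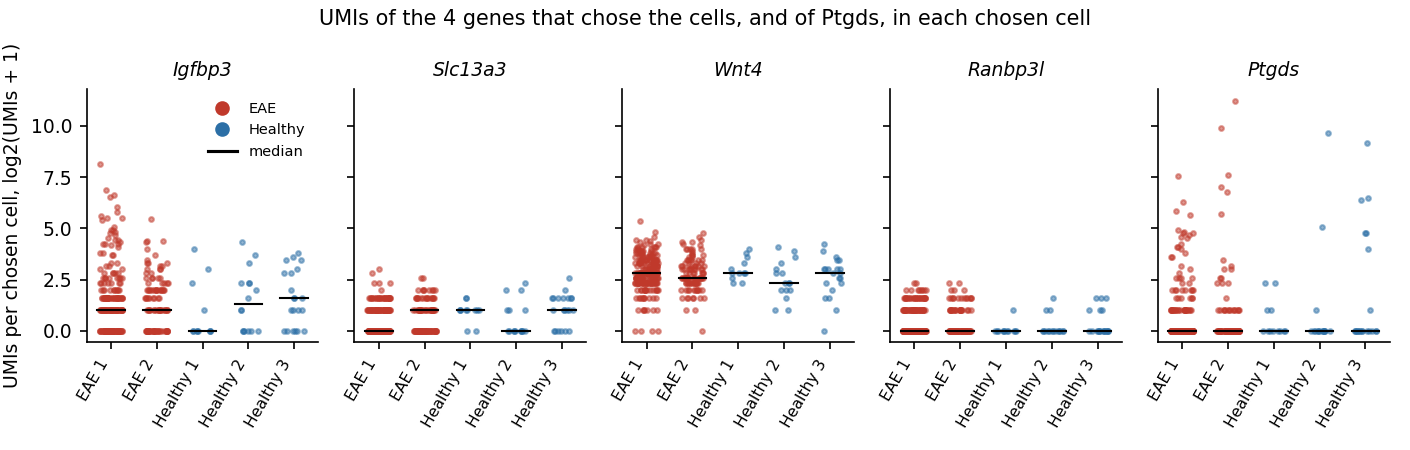
UMIs of Igfbp3, Slc13a3, Wnt4, Ranbp3l and Ptgds in each chosen cell, on a log2(UMIs + 1) scale, by library; black lines are medians. Wnt4 is present in nearly every chosen cell, Igfbp3 reaches 281 UMIs in 1 cell of EAE 1, and the median of Ptgds is 0 in every library although the highest cell of EAE 2 holds 2422 UMIs.

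The choice has a soft edge. The median sum over the 4 genes was 10 and 9 UMIs in EAE 1 and EAE 2 and 9.5, 8.5 and 12 UMIs in Healthy 1 to 3, and the highest was 288 UMIs in 1 cell of EAE 1. Just inside the threshold, 89 cells had a sum of 5 or 6 UMIs. Just outside it, 137 cells had 3 or 4 UMIs from at least 2 genes, and 199 had at least 5 UMIs from 1 gene only. The Lcn2 list removed 98 further cells (87 and 10 of EAE 1 and EAE 2, and 1, 0 and 0 of Healthy 1 to 3), and the Inmt list removed none. The condition on the Lcn2 list thus acted almost only on EAE cells.

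Ptgds marked a few of the chosen cells very strongly and most of them not at all. Its summed level in the chosen cells was 689 and 6161 CPM in EAE 1 and EAE 2, and 306, 14098 and 6518 CPM in Healthy 1 to 3. The other cells of the same libraries had 224 and 73.6 CPM, and 305, 118 and 415 CPM. In the chosen cells 30.7% and 27.5% of EAE and 33.3%, 18.8% and 33.3% of Healthy cells had a Ptgds UMI. The highest cell of EAE 2 held 2422 Ptgds UMIs, 24.8% of all its UMIs, and the highest cells of Healthy 2 and Healthy 3 held 819 and 583. Without the 2 highest cells of each library the level was 456 and 893 CPM in EAE and 76.8, 20.04 and 1327 CPM in Healthy. Ptgds did not pass the test between states within the chosen cells (log2 fold change -1.85 ± 2.69 SE, edgeR adjusted p = 0.797), and the groups overlapped.

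Set against the other cells of the same library, the chosen cells carried more RNA for retinoid handling, solute transport, gap junctions and insulin-like growth factor binding, and less for smooth muscle markers and the chemokine Ccl11. The comparison describes cells chosen by their gene levels, so it has no test. It is a log2 ratio of summed CPM with 10 CPM added to each side, over 5889 genes outside the 12 of the rule. Of these, 1 (0.017%) was at least 4-fold higher in both EAE libraries and 8 (0.136%) were at least 4-fold lower; at 2-fold the counts were 93 (1.58%) and 46 (0.781%). The median log2 ratio over all genes was 0.03 in EAE 1 and 0.01 in EAE 2. The gene past 4-fold was Asgr1, a subunit of the asialoglycoprotein receptor, with 90.3 CPM in the chosen and 9.46 CPM in the other cells of EAE 1, and 117.9 and 7.69 CPM in EAE 2. Healthy cells showed the same order for Asgr1, with 582, 264 and 364 CPM in the chosen cells against 40.2, 22.5 and 29.5 CPM in the others.

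Of 10 measured genes of retinoid handling (vitamin A binding, uptake and conversion), 6 were at least 2-fold higher in the chosen cells of both EAE libraries and none was 2-fold lower. They included Aldh1a1 and Aldh1a2, which make retinoic acid, the carriers Rbp4 and Crabp2, and the uptake receptor Stra6. Aldh1a2 had 1215 and 1006 CPM in the chosen cells of EAE 1 and EAE 2 against 460 and 484 CPM in the others. In Healthy libraries Aldh1a2 had 1041, 545 and 649 CPM in the chosen cells against 155.8, 94.4 and 93.4 CPM in the others. Each library thus had more Aldh1a2 in the chosen cells.

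Of 13 measured solute carriers outside the rule, 5 were at least 2-fold higher and none was 2-fold lower: Slc7a11, Slc13a4, Slc6a13, Slc6a20a and Slc22a8. Slc7a11, the cystine-glutamate exchanger, had 1722 and 1688 CPM in the chosen cells of EAE 1 and EAE 2 and 473 and 412 CPM in the other cells. In Healthy 1 to 3 its level was 673.5, 727 and 617 CPM in the chosen cells and 274, 69.7 and 185 CPM in the others. Slc6a13, a carrier of GABA and taurine, had 496 and 652 CPM in the chosen EAE cells against 182.5 and 202 CPM in the other EAE cells. Slc13a4, a sulfate carrier of the same family as Slc13a3, had 112 and 100.6 CPM against 30.5 and 23.1 CPM.

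Gjb2 and Gjb6, which encode connexins of gap junctions, were 2 of 10 measured junction genes and the only ones of that list past 2-fold. Gjb2 had 403 and 317.5 CPM in the chosen cells of EAE 1 and EAE 2 against 117.5 and 104 CPM in the other cells. Of 9 insulin-like growth factor family genes, Igf2, Igfbp2 and Igfbp5 were at least 2-fold higher. Igfbp2, another binding protein of these growth factors, had 853 and 534 CPM in the chosen cells of EAE 1 and EAE 2 against 229 and 120.1 CPM in the other cells. In Healthy libraries Igfbp2 was higher still, at 2112, 3322 and 4010 CPM in the chosen cells against 732, 250.2 and 573 CPM in the others. Of 12 measured Wnt ligands and antagonists outside the rule, Wnt6 and the Wnt-inactivating enzyme Notum were at least 2-fold higher, and none was 2-fold lower. Wnt6 had 189 and 132 CPM in the chosen cells of EAE 1 and EAE 2 against 55.4 and 42.7 CPM in the others.

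Further genes among the 24 highest ratios included Pi16, Alcam, Isyna1, Creb5, Osr1, Ablim1, Esm1, Plxna2, Glul, C4b, Kcnk2 and Moxd1. Osr1, a zinc finger transcription factor, had 249 and 136.7 CPM in the chosen cells of EAE 1 and EAE 2 against 72.3 and 44.8 CPM in the others. In Healthy 1 to 3 Osr1 had 245, 198 and 189.8 CPM in the chosen cells against 17.6, 10.5 and 16.5 CPM in the others. Pi16, a peptidase inhibitor found in fibroblasts of several tissues, had 407 and 586 CPM in the chosen EAE cells against 114 and 129.9 CPM in the other EAE cells, and 2970, 892.5 and 585 CPM against 291, 247 and 170.3 CPM in Healthy 1 to 3.

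On the lower side, 6 of 24 measured cytokine and acute phase genes were at least 2-fold lower in both EAE libraries (Ccl7, Ccl11, Il6, Il33, Saa1 and Saa2) and C4b was 2-fold higher. The rule removed cells whose Lcn2-list sum, which holds Saa3, exceeded their own, so it bears on the level of acute phase RNA in the chosen cells. Ccl11, the eosinophil chemokine eotaxin, had 5.42 and 4.72 CPM in the chosen cells of EAE 1 and EAE 2 against 198 and 194 CPM in the other cells. In Healthy 1 to 3 Ccl11 had 0, 49.6 and 23.7 CPM in the chosen cells against 832, 1054 and 472 CPM in the others. Spp1, osteopontin, had 95.7 and 53.4 CPM in the chosen EAE cells against 964 and 687 CPM in the other EAE cells. Rgs5, a pericyte marker, had 4.52 and 4.72 CPM in the chosen EAE cells against 105 and 256 CPM in the others, and Rgs5 and Cspg4 were the 2 of 4 measured pericyte markers past 2-fold lower. The summed level of the 7 pericyte markers was nevertheless higher in the chosen cells, at 806 and 1339 CPM in EAE and 2510, 9603 and 3971 CPM in Healthy, against 670 and 1073 CPM and 1646, 1417 and 1656 CPM in the others. Most of that sum came from Vtn, which encodes vitronectin, with 782 and 1319 CPM in the chosen EAE cells against 493 and 707 CPM in the other EAE cells. All 3 measured smooth muscle markers, Acta2, Tagln and Myl9, were at least 2-fold lower. Saa1, an acute phase protein, had 19.9 and 3.14 CPM against 303 and 108 CPM. Apod, a lipid-binding protein and the most abundant of these genes, had 3351 and 6261 CPM in the chosen EAE cells against 14633 and 19649 CPM in the others, and 9521, 13867 and 6138 CPM against 62019.8, 81091 and 67459 CPM in Healthy 1 to 3. Of 43 collagen and matrix genes none was 2-fold higher and Col15a1, Lum, Tnc and Thbs1 were 2-fold lower.

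**Figure D3:**
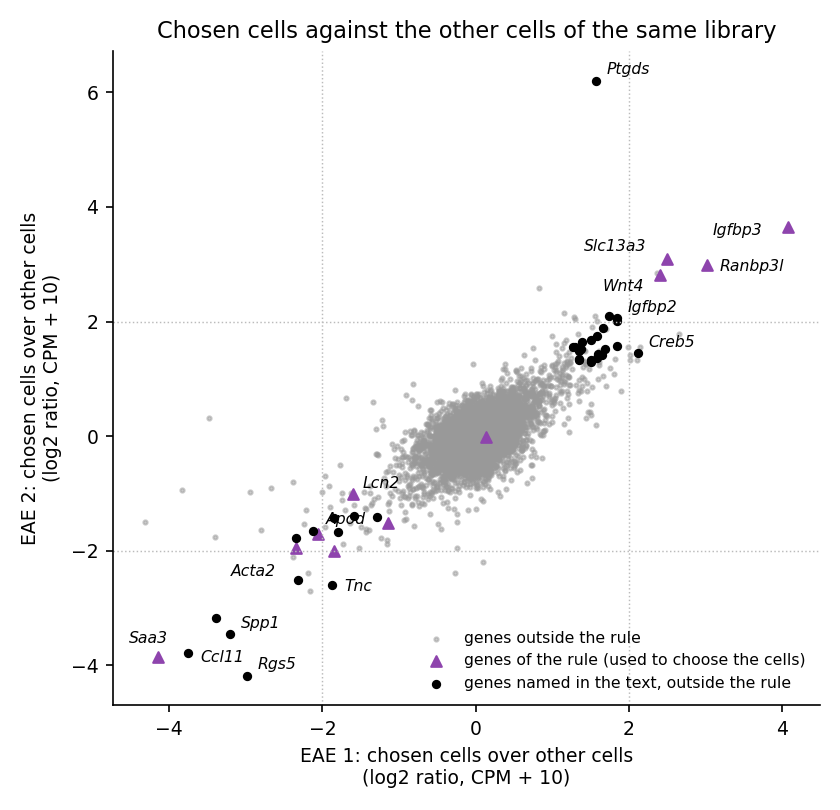
Log2 ratio of summed level (CPM + 10) in the chosen cells over the other cells of the same library, EAE 1 across and EAE 2 up; each point is a gene, triangles are genes of the rule, black points genes named in the text, and dotted lines mark 4-fold. Most genes lie near 0 on both axes, Ptgds lies high in EAE 2 with a log2 ratio of 6.21 and lower in EAE 1 with 1.58, and Ccl11, Spp1 and Rgs5 lie far below 0 in both.

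The chosen cells were also set beside the Inmt-list and Lcn2-list cells, both picked by the mirrored rule. There were 42 and 35 Inmt-list cells and 523 and 135 Lcn2-list cells in EAE 1 and EAE 2. Across genes, which are not independent replicates, Pearson's r of log2 levels with the Lcn2-list cells was 0.943 in EAE 1 and 0.910 in EAE 2 (5860 genes), and with the Inmt-list cells, few in number, 0.816 and 0.829 (6073 genes). With all other cells r was 0.945 and 0.943 (5889 genes). That set includes the Lcn2-list cells, holds more cells (1695 and 1129) and rests on another set of genes. The values of r therefore do not rank the likeness to the 2 sets. Against the Inmt-list cells 58 genes (0.955%) were at least 4-fold higher in both EAE libraries and 46 (0.757%) lower. Against the Lcn2-list cells 3 genes (0.0512%) were higher and 12 (0.205%) lower. The 3 classes were picked from the same libraries by gene levels, so these counts have no test.

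Against the Inmt-list cells, Ptgds, Dpt, Ablim1, Fibin, Csrp2 and Moxd1 had the highest ratios. Dpt, the matrix protein dermatopontin, had 178 and 195 CPM in the chosen cells of EAE 1 and EAE 2 and no UMI in the Inmt-list cells. On the lower side Apod had 3351 and 6261 CPM in the chosen cells against 85422 and 93184 CPM in the Inmt-list cells, and Ebf2, a transcription factor, had no UMI in the chosen cells against 250 and 290 CPM. Against the Lcn2-list cells, Srgn, which encodes the proteoglycan serglycin, had 219 and 149 CPM in the chosen cells and 35.0 and 21.3 CPM in the Lcn2-list cells. Spp1 had 95.7 and 53.4 CPM in the chosen cells against 1646 and 2114 CPM in the Lcn2-list cells, and Il1rn, the interleukin 1 receptor antagonist, 4.52 and 7.86 CPM against 105 and 105 CPM.

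The chosen cells were also split by Igfbp3, 1 of the 4 genes that chose them. In 38 and 19 cells of EAE 1 and EAE 2 and 1, 6 and 5 cells of Healthy 1 to 3, Igfbp3 gave at least 50% of the UMIs over the 4 genes. Of 5836 genes outside the rule, 64 were at least 2-fold higher and 72 at least 2-fold lower in these Igfbp3-led cells than in the other chosen cells of both EAE libraries. Podxl, the sialoglycoprotein podocalyxin, had 320 and 149 CPM in the Igfbp3-led cells of EAE 1 and EAE 2 against 34.6 and 7.56 CPM in the rest. Fn1, fibronectin, had 2525 and 1139 CPM against 796 and 406 CPM. Ptgs1, the cyclooxygenase COX-1, had 273 and 121 CPM against 41.3 and 32.1 CPM. Adh1, an alcohol dehydrogenase of retinol oxidation, ran the other way, with 14.1 and 27.998 CPM in the Igfbp3-led cells against 160 and 180 CPM in the rest. The Igfbp3-led group is small and was picked by level, so this is a description and its counts have no test.

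Between states, the chosen cells of EAE had more RNA for C3 and several chemokines than the chosen cells of healthy cords, and matrix and growth factor genes moved both ways. Summed over chosen cells per library there were 1107260 and 636210 UMIs in EAE and 32664, 60505 and 126421 UMIs in Healthy. Of 2390 genes tested, leaving out the 12 of the rule, 61 rose (2.55%) and 53 fell (2.22%) in EAE (edgeR quasi-likelihood test with batch as a term, Benjamini-Hochberg adjusted p under 0.05). The median log2 fold change over all tested genes was 0.03. Of the 61 rises, 44 were also called higher in EAE over the cells that were not chosen, and 1 (Pla2g7) was called lower there. Of the 53 falls, 43 were also called lower there and 1 (Mgp) higher. Over all 9960 genes tested in those cells, 9.01% rose and 9.65% fell. Most of the called changes were thus shared with the other cells. DESeq2 called 34 genes higher, and without Healthy 3, the deepest Healthy library, 27 rose and 14 fell. Without EAE 1 the counts were 21 and 23, and without Healthy 2 they were 104 and 90.

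C3, the central component of complement, had 597 and 684 CPM in the chosen cells of EAE 1 and EAE 2 and no UMI in those of Healthy 1 to 3. A UMI of C3 was in 65.6% and 61.5% of the EAE cells and in 0 of 12, 0 of 16 and 0 of 21 Healthy cells (which allows shares of up to 25%, 18.8% and 14.3%), against 12.1% and 18.5% of EAE immune cells. C3, like Aqp1 and Cxcl9 below, passed the filter on low counts only through the EAE libraries, which limits what its adjusted p adds. With a floor of 3 counts over the Healthy group, C3 was at least 46.0-fold higher in EAE (edgeR adjusted p = 0.0021). DESeq2 did not call it (adjusted p = 0.513), and neither did edgeR when the condition on the rival lists was dropped (log2 fold change 2.77, adjusted p = 0.583). That condition had removed 87 and 10 EAE cells and 1 Healthy cell. The other Healthy cells had few C3 UMIs too, with a UMI in 3.09%, 2.66% and 1.13% of them, against 50.7% and 39.6% of the other EAE cells.

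Aqp1, a water channel, had 419 and 457 CPM in the chosen EAE cells and no UMI in the chosen Healthy cells, at least 31.7-fold higher (adjusted p = 0.0028; DESeq2 adjusted p = 0.563). Its UMIs were in 53.7% and 45.0% of the chosen EAE cells and in 2.27% and 7.41% of the immune cells of the same libraries. They were also in 30.9% and 29.1% of the other cells of EAE 1 and EAE 2. In the other cells of Healthy 1 to 3 the shares were 0.843%, 0.484% and 0.283%. Cxcl9, an interferon-induced T cell chemokine, had 92.1 and 84.9 CPM in the chosen EAE cells and no UMI in the chosen Healthy cells, at least 6.55-fold higher (adjusted p = 0.0298, and 0.139 without Healthy 3). A Cxcl9 UMI was in 11.5% and 6.42% of the chosen EAE cells and in 15.2% and 7.41% of immune cells, a source of this chemokine themselves. The other cells of EAE 1 and EAE 2 had one more often than the chosen cells, in 22.4% and 11.3% of them. In the other cells of Healthy 1 to 3 the shares were 0.702%, 1.45% and 0.283%. Among the chosen cells of EAE 2, the 2 highest held 66.7% of the 54 Cxcl9 UMIs.

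Pla2g7 encodes an enzyme that inactivates platelet-activating factor. It had 324 and 371 CPM in the chosen EAE cells against 0, 49.6 and 23.7 CPM in the chosen Healthy cells. The groups did not overlap, as for all 61 rises, so this adds little to the call of Pla2g7. The share of all tested genes without overlap is not given here. Pla2g7 rose by 3.70 ± 0.53 on the log2 scale (SE, edgeR adjusted p = 0.0072) and was called in each of 15 alternatives. Like Timp1, Itih3, Plac8 and C1s1 below, Pla2g7 passed the filter on low counts only through the EAE libraries. This limits what their adjusted p-values and alternatives add. Timp1, an inhibitor of matrix metalloproteinases, had 987 and 236 CPM in EAE against 30.6, 33.1 and 7.91 CPM in Healthy (log2 fold change 4.93 ± 0.45, adjusted p = 0.00099), and EAE 1 was well above EAE 2. Itih3, an inter-alpha-trypsin inhibitor heavy chain, had 185 and 245 CPM in EAE against 0, 16.5 and 0 CPM in Healthy, where it rests on 1 UMI; its pooled ratio was 45.5 (95% counting interval 8.11 to 1800). Plac8 had 375 and 295.5 CPM against 0, 16.5 and 15.8 CPM, a pooled ratio of 25.3 (8.62 to 123) from few Healthy UMIs.

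The remaining genes among the 12 largest rises were Kng2, Ly6a, Ctsc, C1s1 and Mustn1. C1s1, a protease of the classical complement pathway, had 306 and 253 CPM in the chosen EAE cells against 30.6, 66.1 and 7.91 CPM in the Healthy ones (log2 fold change 3.34 ± 0.55, adjusted p = 0.0102), and was not called without Healthy 3 (2.77, adjusted p = 0.104). Ly6a, an interferon-responsive surface protein, had 636 and 185.5 CPM against 0, 99.2 and 7.91 CPM (3.64 ± 0.57, adjusted p = 0.0078, and 0.0925 with no batch term). Without Healthy 3 the calls of Kng2 (adjusted p = 0.212), Ctsc (0.105) and Mustn1 (0.0794) were lost as well, and without EAE 2 those of Kng2 (0.262) and Ctsc (0.207); Ctsc was also lost without EAE 1 (0.768) and with DESeq2 (0.0523), and Mustn1 with equal numbers of cells (0.0857). Hk2, a hexokinase of glycolysis, had 528 and 688.5 CPM against 184, 66.1 and 111 CPM and rose by 2.49 ± 0.38 (adjusted p = 0.0078), called in each of 15 alternatives.

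Among the genes that fell, Clec3b, the plasminogen-binding protein tetranectin, had 115 and 171 CPM in the chosen EAE cells against 3827, 3091 and 2650 CPM in the chosen Healthy cells. Its log2 fold change of -4.43 ± 0.33 (adjusted p = 0.00032) held in each of 15 alternatives. Fmod, the collagen-binding proteoglycan fibromodulin, had 74.1 and 89.6 CPM in EAE against 551, 1207 and 1361 CPM in Healthy (-3.71 ± 0.39, adjusted p = 0.0021). Gas6, a ligand of the receptors Tyro3, Axl and Mer, had 45.2 and 42.4 CPM against 490, 479 and 316 CPM (-3.15 ± 0.35, adjusted p = 0.0022). No EAE library overlapped a Healthy one for these 3 genes, as for 50 of the 53 falls, so this adds little to the calls. Fmod and Gas6 were also called in each of 15 alternatives. Gas6, like Angptl1, Cpxm2 and Fdps below, passed the filter on low counts only through the Healthy libraries. This limits what their adjusted p-values add.

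Angptl1, an angiopoietin-like secreted protein, had 24.4 and 4.72 CPM in the chosen EAE cells against 245, 132 and 380 CPM in the Healthy ones (-3.98 ± 0.62, adjusted p = 0.0078, and -2.56 with adjusted p = 0.0503 without Healthy 3). Cpxm2 had 30.7 and 23.6 CPM against 184, 182 and 482.5 CPM (-3.36 ± 0.45, adjusted p = 0.0057, and -2.31 with adjusted p = 0.123 without Healthy 3). C1ql1 and Fam180a, also among the 12 largest falls, overlapped between the groups: Healthy 3 had no C1ql1 UMI and Healthy 1 no Fam180a UMI. Without EAE 1 the sign of C1ql1 turned (log2 fold change 2.70) and Fam180a was not called (adjusted p = 0.484); without EAE 2 neither was called (0.472 and 0.344), nor was Fam180a without Healthy 3 (0.130). The other falls were Fgfbp1, Lamc3, Parm1, Fbln5 and Fdps, the last an enzyme of the mevalonate pathway with 15.3 and 7.86 CPM in EAE against 91.8, 99.2 and 71.2 CPM in Healthy. Without Healthy 3 the calls of Lamc3, Parm1, Fbln5 and Fdps were lost (adjusted p 0.178 to 0.859), without EAE 1 those of Fgfbp1, Lamc3 and Parm1 (0.109 to 0.150), and without EAE 2 those of Lamc3 and Parm1 (0.274 and 0.663). With no batch term C1ql1, Fam180a, Fdps and Fgfbp1 were not called (0.0582 to 0.187).

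**Figure D4:**
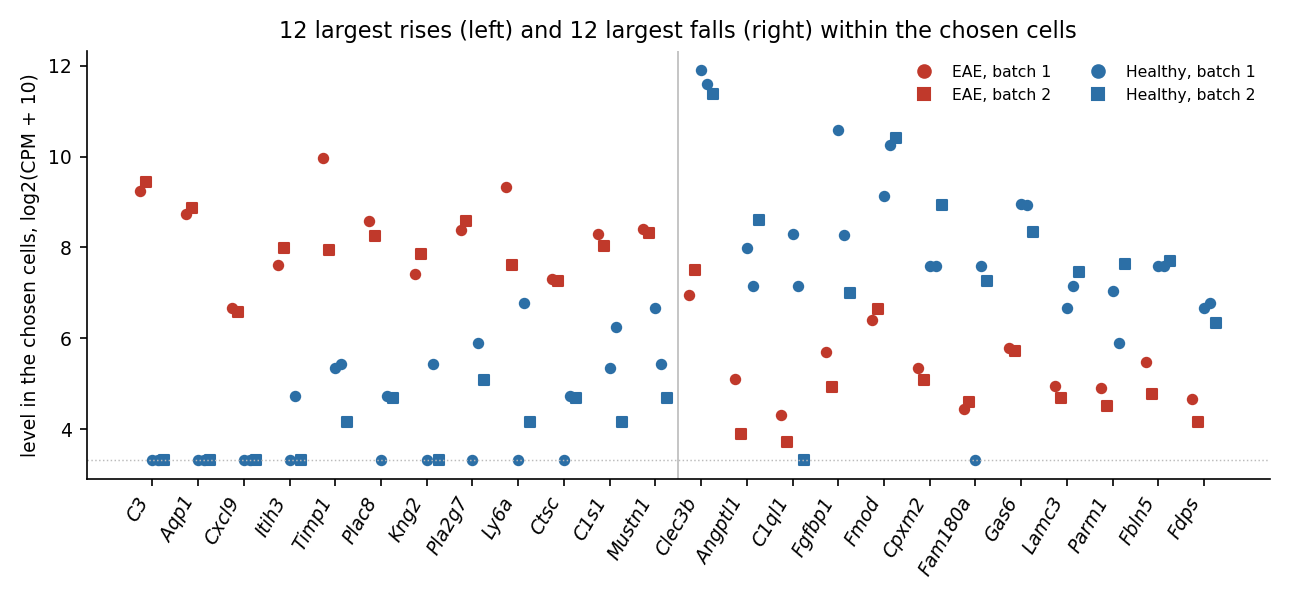
Level in the chosen cells, log2(CPM + 10), for the 12 genes with the largest fold change up and the 12 with the largest fold change down in EAE; each point is a library, red for EAE and blue for Healthy, circles for the first batch and squares for the second, and the dotted line marks 0 CPM. C3, Aqp1 and Cxcl9 are at 0 in all 3 Healthy libraries, and Clec3b is far lower in both EAE libraries.

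Of 15 tested cytokine and acute phase genes, 8 rose (C3, C4b, Ccl2, Ccl7, Cxcl1, Cxcl9, Cxcl10 and Timp1), none fell, and the median log2 fold change of the list was 1.41 beside 0.03 over all tested genes. At least C3, Cxcl9, Timp1 and Ccl7 entered the tested genes only through the EAE libraries, which bears on this count and on the list median. Leaving out 1 library ended some of these calls. Without EAE 1, Ccl2, Ccl7, Cxcl1 and Cxcl10 were lost (adjusted p 0.530 to 0.606), without EAE 2 Ccl7, Cxcl1 and Cxcl10 (0.0589 to 0.526), and without Healthy 3 C4b, Ccl7, Cxcl1, Cxcl9 and Cxcl10 (0.0978 to 0.573). DESeq2 did not call C3, Ccl2, Ccl7, Cxcl1 or Cxcl10 (0.0550 to 0.513), and with equal numbers of chosen cells per library Ccl7 and Cxcl1 were lost (0.103 and 0.0712). C4b, another complement component, had 483 and 476 CPM in the chosen EAE cells against 122.5, 116 and 63.3 CPM in the Healthy ones (2.46 ± 0.37, adjusted p = 0.0078). Of 14 interferon-induced genes, B2m, H2-D1 and H2-K1, parts of the class I antigen-presenting complex, rose, with a list median of 0.74. B2m had 5247 and 2138 CPM in EAE against 1225, 1438 and 1068 CPM in Healthy. It rose by 1.60 ± 0.26 (adjusted p = 0.0102) and was not called without EAE 1 (adjusted p = 0.588), nor were H2-D1 and H2-K1, whose log2 fold changes were then 0.56 and 0.85. H2-D1 was also lost without Healthy 1 (0.0710) and H2-K1 without Healthy 3 (0.0533). With equal numbers of cells H2-D1 and H2-K1 were lost (0.233 and 0.191), as they were with DESeq2 and with no batch term.

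The growth factor and retinoid genes moved both ways. Of 8 tested insulin-like growth factor family genes, Igfbp4, Igfbp5 and Igfbp7 rose and Igfbp2 and Igf2 fell. None of these 5 calls held without Healthy 3 (adjusted p from 0.188 for Igfbp5), those of Igf2, Igfbp4, Igfbp5 and Igfbp7 did not hold without EAE 2 (0.0617 to 0.463), and those of Igfbp4 and Igfbp5 did not hold without EAE 1 (0.486 and 0.659). With equal numbers of chosen cells per library the direction of Igfbp5 turned (log2 fold change -0.047, adjusted p = 0.963) and Igf2 and Igfbp4 were not called (0.213 and 0.0569), and with no batch term Igf2 and Igfbp7 were not called (0.0675 and 0.347). Igfbp2 had 853 and 534 CPM in the chosen EAE cells against 2112, 3322 and 4010 CPM in the Healthy ones (-2.15 ± 0.34, adjusted p = 0.0082, and -1.43 with adjusted p = 0.233 without Healthy 3). Of 9 retinoid genes, Rdh10 and Cyp1b1, which oxidise retinol or its products, and Stra6 rose, and the plasma retinol carrier Rbp4 fell. Cyp1b1 had 729 and 534 CPM in EAE against 214, 132 and 79.1 CPM in Healthy (2.45 ± 0.35, adjusted p = 0.0072, called in each of 15 alternatives). Rbp4 had 744 and 846 CPM in EAE against 3888, 2297 and 2816 CPM in Healthy (-1.86 ± 0.28, adjusted p = 0.0078). Without Healthy 3 the calls of Rbp4 (0.0533), Rdh10 (0.448) and Stra6 (0.329) were lost, Rdh10 also without EAE 2 (0.192) and Stra6 without Healthy 1 (0.0665). DESeq2 did not call Rdh10 or Stra6 (0.0523 and 0.223), and Rbp4 was not called with equal numbers of cells (0.0712).

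Of 36 collagen and matrix genes, Col3a1, Col4a1, Col4a2, Col8a1 and Fbln2 rose and Fmod, Mfap4, Ogn and Fbln5 fell, with a median of 0.23. Col3a1, fibrillar collagen III, had 3820 and 2913 CPM in the chosen EAE cells against 796, 909 and 1171 CPM in the Healthy ones (1.83 ± 0.26, adjusted p = 0.0069, and 1.40 with adjusted p = 0.167 without EAE 1). Col8a1, a network-forming collagen, had 878 and 1113 CPM against 275.5, 132 and 277 CPM (2.15 ± 0.32, adjusted p = 0.0078). Of 7 solute carriers, Slc7a11 rose, with 1722 and 1688 CPM against 673.5, 727 and 617 CPM (1.41 ± 0.23, adjusted p = 0.0102; 0.116 without EAE 1 and 0.104 without Healthy 3). Of 7 Wnt genes the antagonist Wif1 rose and Notum fell, of 8 BMP and TGF-beta genes Bmp4 fell, and of 7 junction genes Gjb6 fell. Each of Wif1, Notum, Bmp4 and Gjb6 was lost when either EAE library or Healthy 3 was left out (adjusted p from 0.181 for Bmp4), and Bmp4 and Wif1 also without Healthy 1 (0.103 and 0.0650). DESeq2 did not call Wif1, Notum, Bmp4, Col4a2 or Fbln2 (0.0601 to 0.173), and with equal numbers of cells Wif1, Bmp4, Gjb6, Col4a2, Fbln2, Mfap4 and Ogn were lost (0.0686 to 0.199). Among the matrix genes, the calls of Col4a1, Col4a2 and Fbln2 were lost without EAE 1 (0.289 to 0.813), those of Col4a2 and Mfap4 without EAE 2 (0.175 and 0.147), and those of Col4a1, Col4a2, Mfap4, Ogn and Fbln5 without Healthy 3 (0.0867 to 0.805); Col4a2 and Fbln2 were also lost without Healthy 1 (0.0541 and 0.0510). None of 17 tested transcription factors, 5 prostaglandin genes, 5 hypoxia and glycolysis genes or 4 arachnoid barrier markers passed.

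Markers of other cell types in the chosen cells differed between states to unlike extents. The summed level of the 7 pericyte markers was 806 and 1339 CPM in the chosen EAE cells and 2510, 9603 and 3971 CPM in the chosen Healthy cells, mostly from Vtn, which did not pass (-2.31 ± 0.57, adjusted p = 0.0510). Slc1a3, a glutamate carrier of the astrocyte list, had 644 and 703 CPM in EAE against 276, 215 and 261 CPM in Healthy and rose by 1.47 ± 0.29 (adjusted p = 0.0252), a call lost without EAE 1, without EAE 2 or with Healthy 3 left out (0.123 to 0.482). The summed level of 9 myeloid markers was 61.4 and 116 CPM in the chosen EAE cells and 0, 0 and 15.8 CPM in the chosen Healthy cells, and that of 6 lymphocyte markers 3.61 and 1.57 CPM against 0, 0 and 0. The lymphocyte markers Cd3d, Nkg7 and Ltb had no UMI in the chosen cells of any library. The part of these cell types in the rise of the complement and chemokine genes was not tested. In summed levels, fewer expressing cells and less RNA per cell cannot be told apart.

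The promoters of the 3 genes without a UMI in the chosen Healthy cells, and of Pla2g7, are shown because these genes had the largest rises or the largest difference between cell classes; they were picked after their values were seen. Each runs from 250 bases before to 50 bases after the RefSeq start on GRCm38.p6, 5′ to 3′ on the gene's strand. C3 is at chr17:57228087-57228386 (minus strand), Aqp1 at chr6:55336049-55336348 (plus), Cxcl9 at chr5:92328030-92328329 (minus) and Pla2g7 at chr17:43568201-43568500 (plus). Capitals mark a match to 1 of 5 motifs searched on both strands.
C3: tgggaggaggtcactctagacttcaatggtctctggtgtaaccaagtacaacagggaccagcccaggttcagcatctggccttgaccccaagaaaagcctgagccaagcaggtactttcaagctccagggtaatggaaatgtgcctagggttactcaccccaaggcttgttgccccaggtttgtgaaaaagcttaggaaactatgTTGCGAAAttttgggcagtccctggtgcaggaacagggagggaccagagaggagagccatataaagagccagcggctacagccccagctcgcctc
Aqp1: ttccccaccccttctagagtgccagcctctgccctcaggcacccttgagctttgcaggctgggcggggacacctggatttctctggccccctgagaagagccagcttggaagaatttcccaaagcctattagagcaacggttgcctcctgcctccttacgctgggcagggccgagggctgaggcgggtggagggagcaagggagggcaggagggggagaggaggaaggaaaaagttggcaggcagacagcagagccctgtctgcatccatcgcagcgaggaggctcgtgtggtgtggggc
Cxcl9: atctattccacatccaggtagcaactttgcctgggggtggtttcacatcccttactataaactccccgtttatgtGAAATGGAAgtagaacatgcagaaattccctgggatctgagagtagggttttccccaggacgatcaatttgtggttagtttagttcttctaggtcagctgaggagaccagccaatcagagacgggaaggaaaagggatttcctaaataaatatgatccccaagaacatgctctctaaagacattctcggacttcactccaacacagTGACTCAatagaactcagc
Pla2g7: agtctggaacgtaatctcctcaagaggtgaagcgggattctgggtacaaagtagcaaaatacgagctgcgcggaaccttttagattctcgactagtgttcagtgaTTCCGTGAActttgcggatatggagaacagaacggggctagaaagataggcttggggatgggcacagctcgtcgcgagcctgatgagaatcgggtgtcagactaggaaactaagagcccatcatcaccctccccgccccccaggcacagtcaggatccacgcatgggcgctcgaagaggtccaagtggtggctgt

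The motifs were STAT (TTCNNNGAA, in 8.30% of 32851 RefSeq promoter windows of this length), NF-kB (GGANTTTCC, 1.25%), the ISRE core (GAAANNGAA, 8.56%), C/EBP (TTGCNNAA, 10.8%) and AP-1 (TGANTCA, 7.81%), and no match overlapped another. C3 held 1 C/EBP match that begins at -45 from the start, Cxcl9 an ISRE core at -175 and an AP-1 match at 32, and Pla2g7 a STAT match at -145. Aqp1 held none of these letters in this window. A match is a description of the sequence, not a bound site.

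The next question was whether the change with EAE differed between the chosen cells and the other fibroblast-type cells of the same libraries (at least 2 UMIs over the 4 fibroblast genes). In an edgeR fit with library as a block, the log2 effect of EAE was higher in the chosen cells for 32 of 2390 genes (1.34%) and lower for 35 (1.46%) at an adjusted p under 0.05. The choice of comparison cells and of this fit came after other results had been seen. Genes also had to pass the filter on low counts in the chosen cells. Pla2g7, Ccl7 and C1s1 passed it there only through the EAE libraries, and Gas6 and Cpxm2 only through the Healthy ones. This limits what their adjusted p-values add. Without EAE 1 the counts were 13 and 7, without EAE 2 19 were higher, and without Healthy 3 67 were higher. The make-up of the other cells was not held equal between states: Lcn2-list cells numbered 523 and 135 in EAE and 7, 1 and 0 in Healthy.

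Pla2g7 had the largest difference and moved in opposite directions. In the chosen cells it had 324 and 371 CPM in EAE against 0, 49.6 and 23.7 CPM in Healthy. In the other fibroblast-type cells it had 168 and 160 CPM in EAE against 331, 376 and 501 CPM in Healthy. The difference of the log2 effects was 5.24 ± 0.40 (SE, edgeR adjusted p = 1.63e-05). Over all cells that were not chosen, Pla2g7 fell by 1.46 on the log2 scale (± 0.22 SE, adjusted p = 0.0014). A Pla2g7 UMI was in 61.5% and 67.0% of the chosen EAE cells, in 36.1% and 39.3% of the other EAE cells and in 15.2% and 14.8% of EAE immune cells. In Healthy 1 to 3 it was in 0%, 12.5% and 14.3% of the chosen cells and in 26.1%, 47.0% and 52.7% of the other cells. The chosen cells were thus the richer class in EAE and the poorer one in healthy cords.

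Ccl7, a monocyte chemokine, had 130 and 151 CPM in the chosen EAE cells against 0, 33.1 and 15.8 CPM in the chosen Healthy cells, while the other fibroblast-type cells had 361 and 424 CPM in EAE against 673, 317 and 457 CPM in Healthy (difference 3.30 ± 0.52, adjusted p = 0.0044). Dcn, the proteoglycan decorin, had 9859 and 8485 CPM in the chosen EAE cells against 8419, 8363 and 4817 CPM in the chosen Healthy cells. In the other fibroblast-type cells it was lower in EAE, at 9367 and 8383 CPM, than in Healthy, at 23210.2, 31458 and 25216 CPM (difference 2.15 ± 0.23, adjusted p = 0.0048). Smoc2, a matricellular protein, had 78.6 and 42.4 CPM against 91.8, 149 and 87.0 CPM in the chosen cells, and 120 and 86.5 CPM against 694, 1185 and 856 CPM in the other cells (2.54 ± 0.31, adjusted p = 0.0014). Hk2 and the myosin kinase gene Mylk also had a more positive effect in the chosen cells, by 2.14 ± 0.29 and 2.17 ± 0.45.

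Mgp, matrix Gla protein, an inhibitor of calcification, ran the other way. It had 1683 and 1188 CPM in the chosen EAE cells against 4500, 3801 and 4232 CPM in the chosen Healthy cells, and fell there by 1.48 ± 0.23 (SE, adjusted p = 0.0081, 0.0957 without EAE 2, 0.604 without Healthy 3 and 0.0728 with equal numbers of cells). In the other fibroblast-type cells it had 2781 and 2352 CPM in EAE against 1448, 1734 and 1417 CPM in Healthy. The difference was -2.13 ± 0.18 (adjusted p = 3.15e-05). Pla2g7, Ccl7, Dcn, Smoc2, Hk2, Mylk and Mgp were called in each of the 8 alternatives of this fit.

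Osr1 and Gas1, a cell surface protein of growth arrest, were high in the chosen cells in both states and in the other fibroblast-type cells mainly in EAE. Gas1 had 462 and 350.5 CPM in the chosen EAE cells against 337, 297.5 and 269 CPM in the chosen Healthy cells. In the other fibroblast-type cells it had 350 and 239 CPM in EAE against 50.4, 85.3 and 22.8 CPM in Healthy (difference -2.02 ± 0.37, adjusted p = 0.0144; 0.0654 without EAE 1 and 0.0577 without Healthy 1). Osr1 had 249 and 136.7 CPM against 245, 198 and 189.8 CPM in the chosen cells, and 82.3 and 45.4 CPM against 18.5, 10.9 and 16.6 CPM in the others (difference -1.98 ± 0.34, adjusted p = 0.0066; 0.572 without EAE 1 and 0.0624 without EAE 2). Chosen cells had to carry Igfbp3, Slc13a3, Wnt4 or Ranbp3l in both states; the part of that choice in these differences was not tested.

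**Figure D5:**
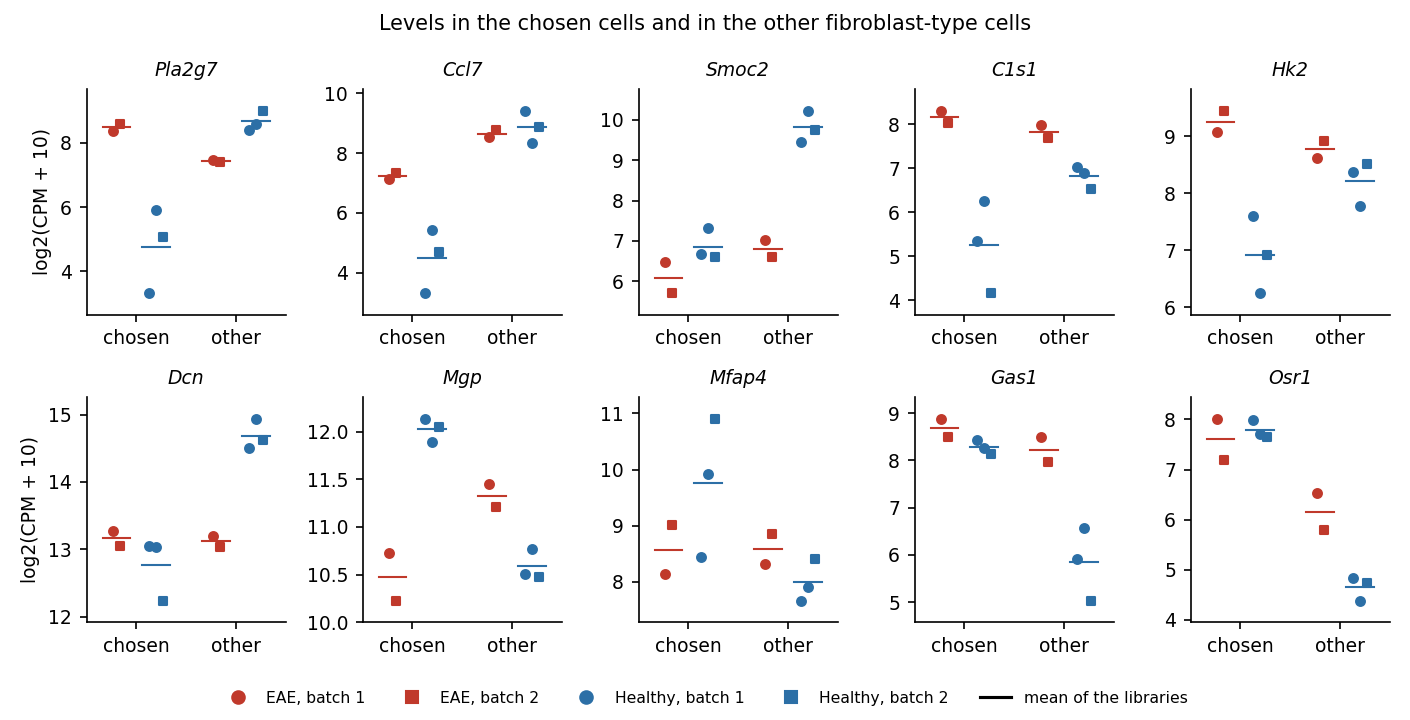
Level, log2(CPM + 10), of 10 genes in the chosen cells (left in each panel) and in the other fibroblast-type cells (right), red for EAE and blue for Healthy, circles for the first batch, squares for the second, lines for the mean of the libraries. Pla2g7 is higher in EAE in the chosen cells and lower in EAE in the others, and Mgp shows the opposite.

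The 2 EAE libraries differed mostly in genes that also differed in their other cells. Of 869 genes, 17 were at least 4-fold higher in the chosen cells of EAE 1 and 3 in those of EAE 2, and 15 of these 20 were at least 4-fold apart in the same direction in the other cells. Those higher in EAE 1 were led by ribosomal pseudogenes such as Rpl23a-ps3, with 946 CPM in EAE 1 and 28.3 CPM in EAE 2, whose reads cannot be told from those of their parent genes. Vps8, a gene of vesicle traffic, had 61.4 CPM in EAE 1 and 3090 CPM in EAE 2, and 73.1 and 4179 CPM in the other cells. Bmp2, a bone morphogenetic protein, had 40.6 CPM in EAE 1 and 223 CPM in EAE 2. From the EAE libraries alone, with 1 in each batch, batch and library cannot be told apart. The Healthy libraries of the 2 batches were not compared for these genes.

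Within the second batch alone, EAE 2 against Healthy 3, 19 of 909 genes were at least 4-fold higher and 20 at least 4-fold lower in the chosen cells. C3, Aqp1, Gm12840, Itih3 and Kng2 had no UMI in the chosen cells of Healthy 3, where a count of 0 allows up to 23.7 CPM. Tppp3, a tubulin-binding protein, had 40.9 CPM in EAE 2 and 482.5 CPM in Healthy 3, and Dlg1, a scaffold protein of cell polarity, 69.2 and 736 CPM.

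Last, the marker genes were tested over all sorted cells, with the chosen cells included. Igfbp3, Slc13a3, Wnt4 and Ranbp3l are the genes of the rule, which was set with earlier results of these data known. Their p-values here are therefore no independent support for the choice of cells or for the shares. Of 10224 genes, 926 (9.06%) rose and 987 (9.65%) fell in EAE. Igfbp3 had 222 and 79.0 CPM in EAE 1 and EAE 2 against 57.9, 63.1 and 61.9 CPM in Healthy 1 to 3 and rose by 1.17 ± 0.31 (SE, edgeR adjusted p = 0.0298). EAE 1 was far above the other 4 libraries, and without it the log2 fold change of Igfbp3 was 0.29 (adjusted p = 0.851); it was not called without Healthy 1 (0.0973) or without Healthy 2 (0.108) either, nor with barcodes as deposited (0.55, adjusted p = 0.0617) or with no batch term (0.0925). Wnt4 had 401 and 257 CPM against 250.6, 145 and 138 CPM and rose by 0.89 ± 0.24 (adjusted p = 0.0283). Wnt4 was not called without EAE 1 (0.355), without EAE 2 (0.0863) or without Healthy 3 (0.115), nor with no batch term (0.138). Ranbp3l had 18.1 and 12.1 CPM against 5.70, 2.87 and 6.32 CPM and rose by 1.53 ± 0.40 (adjusted p = 0.0223; 0.665 without EAE 1 and 0.0834 without Healthy 2, 0.103 as deposited and 0.086 with DESeq2). Slc13a3, with 26.7 and 21.3 CPM against 26.6, 10.7 and 25.9 CPM, did not pass (adjusted p = 0.853), and neither did Ptgds (adjusted p = 0.174).

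In the cells left after the chosen ones were taken out, 897 of 9960 genes (9.01%) rose and 961 (9.65%) fell. The rule chose cells by Igfbp3, Slc13a3, Wnt4 and Ranbp3l, so it also shaped the levels of these genes in the cells left. Those held 129 and 58 EAE cells and 2, 8 and 2 Healthy cells with at least 5 UMIs from 1 gene only. They also held the 87 and 10 EAE cells and 1, 0 and 0 Healthy cells put out by the Lcn2 list. The part of the rule in the differences there was not tested. Igfbp3 had 74.9 and 34.2 CPM in EAE against 33.3, 21.7 and 15.1 CPM in Healthy there (1.27 ± 0.25, adjusted p = 0.0058, and 0.254 without EAE 1). Wnt4 had 269 and 165 CPM against 169, 80.9 and 57.0 CPM (1.20 ± 0.30, adjusted p = 0.0215; 0.0608 without Healthy 3, and 0.0969 or 0.138 with EAE 1 or EAE 2 left out). With barcodes as deposited neither was called, at log2 fold changes of 0.17 for Igfbp3 (adjusted p = 0.796) and 0.80 for Wnt4 (0.160), and neither was called with no batch term (0.118 and 0.209). Slc13a3 did not pass (0.42 ± 0.61, adjusted p = 0.694), and Ranbp3l was too low to be tested.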

How the data were processed

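Single-cell libraries were made with the 10x Genomics kit from sorted cells, per the labels' protocols, and the submitters' processing notes name Cell Ranger 2.1.1, Seurat 3 and mm10. For each library the authors deposited raw UMI counts, with genes in rows and barcodes in columns. Tables of the first batch hold 28692 genes and those of the second 27998, and sums and CPM use the 27998 shared genes. Of 7205 barcodes, 6904 passed the filters (at least 200 genes, at most 10% mitochondrial UMIs) and 4678 remained once barcodes shared within the first batch were counted once.

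UMIs were summed per library over chosen cells, over the others and over all cells, and tested with edgeR 4.0.16 (R 4.3.3; quasi-likelihood F test, TMM factors, its filter on low counts, robust, batch and state as terms, Benjamini-Hochberg over all genes tested, threshold 0.05). DESeq2 1.42.0, other scalings, filters, thresholds and leaving out each library served as alternatives. SE is the log2 fold change divided by the square root of F. The fits were tested on simulated data. Within the chosen cells, over 2059 genes, 97.8% of genes changed 4-fold were recovered with 5 false calls. For the difference between cell classes, over 2096 genes, 82.4% were recovered with 4 false calls. The simulated counts had the same dispersion for every gene and no batch effect. Only changed genes that passed the filter were scored. The real libraries vary more than that, so these rates do not give the power or error of the real fits. Marker and pathway lists numbered 19 and 15. Genes were named by rule: the 24 highest and 12 lowest ratios with at least 100 CPM on the higher side, listed genes past the test, and up to 6 each way between libraries.

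The chosen cells, the lists and the tests were set with earlier results of these data known. The following were set after seeing values here: the fit of the difference between classes and its comparison cells, the 7 added alternatives within the chosen cells, naming the 12 largest rises and falls and the 8 largest differences each way, the 2-fold counts of lists, the view of Ptgds without its 2 highest cells, the Igfbp3-led and immune definitions, the promoters and the motifs. Depth was 1053425 to 10151678 UMIs per library after counting once; the chosen Healthy cells number 12, 16 and 21, which limits precision. Intervals and floors cover counting error only. Some genes that these rules name are not reported here.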

Additional observations from a re-analysis of the deposited data

Results flagged for a closer look

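A difference in the effect of EAE between the chosen cells and the other fibroblast-type cells, tested by the term for cell class by state, brought 18 named genes here. The values are differences of log2 effects, chosen cells minus other fibroblast-type cells, from edgeR with adjusted p under 0.05. Higher in the chosen cells were Pla2g7 (5.24), Ccl7 (3.30), Smoc2 (2.54), C1s1 (2.32), Mylk (2.17), Dcn (2.15), Hk2 (2.14) and Slc1a3 (1.01). Lower were Dpt (-2.43), Mgp (-2.13), Gas1 (-2.02), Parm1 (-2.02), Osr1 (-1.98), Mfap4 (-1.94), Cpxm2 (-1.81), Fbln5 (-1.73), Gas6 (-1.35) and Igf2 (-1.15).

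Dpt, the matrix protein dermatopontin, had 178 and 195 CPM in the chosen cells of EAE 1 and EAE 2 against 245, 248 and 815 CPM in those of Healthy 1 to 3, and 268 and 142 CPM in the other fibroblast-type cells of EAE against 105, 51.2 and 111 CPM in those of Healthy. Pla2g7, Ccl7, Smoc2, Mylk, Dcn, Hk2 and Mgp were called in each of 8 alternatives; for each of the other 11 genes at least 1 left-out library ended the call. The part of the make-up of the other cells, which differed between states, was not tested. In the chosen cells Pla2g7, Ccl7 and C1s1 passed the filter on low counts only through EAE, and Gas6 and Cpxm2 only through Healthy.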

How the results depend on the processing

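The difference in share kept its direction in every alternative run, from 0.998 points (thinned to 1000 UMIs) to 9.06 points (no condition on the rival lists), and from 5.14 to 7.73 points with 1 library left out; none could pass a threshold. Other thresholds gave 8.18 (at least 3 UMIs), 3.92 (at least 8 UMIs), 2.87 (3 of the 4 genes), 7.36 (barcodes as deposited) and 1.87 points (thinned to 2000 UMIs).

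Counts of genes at least 4-fold higher and lower than in the other cells, 1 and 8, moved to 9 and 17 with 3 of the 4 genes, 9 and 21 with a pseudocount of 1 CPM, 0 and 2 with 50 CPM, 2 and 15 with cells weighted equally, and 8 and 23 when thinned to 2000 UMIs. The higher count was 4 with at least 8 UMIs and 2 against fibroblast-type cells. By 1 EAE library alone they were 7 to 11 and 12 to 52. With a list threshold of 8 UMIs, 98 genes were higher than in the Inmt-list cells and 10 than in the Lcn2-list cells.

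Within the chosen cells the 61 rises became 34 with DESeq2, 33 with equal numbers of cells, 39 with no batch term and 150 with no filter on low counts, and 21 to 104 with 1 library left out. The 53 falls became 32 with no batch term and 14 to 90 with 1 library left out. The 32 and 35 differences between classes became 20 higher with library totals, and 13 to 67 and 7 to 43 with 1 library left out. Over all cells the 926 rises became 524 as deposited, 607 with no batch term and 1812 with no filter, and 378 to 1444 with 1 library left out; the falls became 379 to 1178. Outside the chosen cells the 897 rises became 493 as deposited, 1882 with no filter and 269 to 1819 with 1 library left out, and the falls 295 to 1525. The cause was not tested.

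Signs turned for C1ql1 within the chosen cells (2.70 without EAE 1; -4.24 to 2.70 over left-out libraries), Igfbp5 (-0.047 with equal numbers of cells) and Ptgds (0.30 with at least 8 UMIs, 0.46 without Healthy 2; -3.33 to 0.46). They turned outside the chosen cells for Ptgds (0.0012 without Healthy 3; -2.57 to 0.0012) and Slc13a3 (-0.026 as deposited, -0.08 without EAE 1, -0.16 without Healthy 2; -0.16 to 1.05), and over all cells for Slc13a3 (-0.34 without EAE 1, -0.21 without Healthy 2; -0.34 to 0.47). No paired analysis was possible because the groups share only 1 replicate number in the labels, and the first EAE title carries none.

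Few chosen Healthy cells, and barcodes shared between files of the first batch, limit every comparison between states. With 1 EAE library in each batch, leaving 1 out leaves a lone sample that is assumed to vary like the others.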
